A study of Mus musculus with 6 samples.

Results

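The AP-1, Egr and Srf immediate early genes were followed in CAD cells, a mouse catecholaminergic cell line of the central nervous system that carries simian virus 40. The members were fixed by name: the Fos family genes Fos, Fosb, Fosl1 and Fosl2, the Jun family genes Jun, Junb and Jund, the zinc finger genes Egr1 and Egr3, and Srf. These are 10 of the 55536 genes in the counts. The mRNA libraries came from 3 Dex-differentiated samples, kept for 5 days in 100 µM dexamethasone (Dex, a synthetic glucocorticoid) with 1% fetal bovine serum and fresh medium every 48 h, and from 3 undifferentiated, proliferating samples in 8% serum. All 6 are of the male C57BL/6 x DBA/2 line CAD at a low passage number. The steroid and the serum changed together, so each difference is of that combination, and the time between the last medium change and lysis is not given in the sources used here. The labels call the samples independent without naming separate cultures, and the p-values cover only how these samples vary, possibly from technical sources alone.

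Fos and Jun proteins share a basic region and a leucine zipper. They pair into AP-1, which binds DNA at short palindromic sites, and Fos proteins need a Jun partner to do so. Egr1 and Egr3 are zinc finger activators of GC-rich sites, held in check by the Nab corepressors. Srf binds CArG boxes in the promoters of Fos, Egr1 and actin genes. Serum, growth factors and calcium entry raise Fos, Egr1 and Junb mRNA within minutes through MAP kinases, ternary complex factors and Srf, and the mRNAs are short-lived. The glucocorticoid receptor is known to restrain AP-1 by direct contact.

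The deposited counts summed to 8751906, 8757992 and 6411105 in Dex-differentiated replicates 1 to 3, and to 7414047, 8168939 and 6476847 in undifferentiated replicates 1 to 3. Within the Dex-differentiated group, replicate 1 stood apart from the other two, with a chi-square per degree of freedom of 3.18 against replicate 2 and 3.19 against replicate 3, while replicates 2 and 3 gave 1.65. Mitochondrial ribosomal RNA took 0.195% to 0.243% of counts in Dex-differentiated and 0.0634% to 0.0883% in undifferentiated libraries, and its part in the results was not tested. Of 11 catecholaminergic and neuroendocrine markers, all were tested, with 6 called higher and 4 lower (40.3% and 38.6% over all genes tested). The granule protein genes Chgb and Scg2 rose 9.73-fold and 8.11-fold and Dbh, which makes noradrenaline, fell 13.2-fold. Ddc, the dopamine-making decarboxylase, was near 0 in Dex-differentiated cells (0.466 ± 0.185 CPM, SD, n = 3, where CPM are reads scaled for library size) and low in undifferentiated cells (3.61 ± 0.187 CPM, SD, n = 3). The 5 astrocyte markers summed to between 0.775 and 1.64 CPM in Dex-differentiated and between 1.14 and 1.27 CPM in undifferentiated libraries. The 5 microglial and blood markers summed to at most 0.149 CPM in Dex-differentiated and 0.565 CPM in undifferentiated libraries, with 3 of them at 0 throughout. The 6 fibroblast markers summed to between 18.3 and 20.3 CPM in Dex-differentiated and between 10.1 and 13.7 CPM in undifferentiated libraries. The 4 endothelial markers summed to between 33.4 and 35.7 CPM in Dex-differentiated and between 18.3 and 21.3 CPM in undifferentiated libraries, and the 5 oligodendrocyte and Schwann cell markers to between 1.79 and 2.83 CPM and between 0.424 and 1.27 CPM in that order. Single genes carried the larger sums: Pecam1 averaged 33.1 CPM in Dex-differentiated and 19.5 CPM in undifferentiated cells and Dcn 17.6 CPM and 8.30 CPM in that order, while the collagen genes Col1a1 (1.27 and 2.00 CPM) and Col1a2 (0.268 and 0.770 CPM) were low, and Col3a1 was at 0. The part of such marker expression in the results was not tested.

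Fos, Junb, Egr1 and Srf fell in Dex-differentiated cells, while Jun and Fosl2 rose. Fos fell furthest, by 5.07-fold, and Fosl2 rose furthest of the members, by 2.89-fold. Fosb, Jund and Egr3 had at most 8 reads in any library and Fosl1 had none. Of the 10 members, 6 passed the filter on low counts and were tested, with 2 called higher and 4 called lower by edgeR's quasi-likelihood test at an adjusted p under 0.05. Among all 12664 genes tested, 40.3% were called higher and 38.6% lower, 78.9% in all, so a call by itself was common, and the size and direction of each member's change carry the description. The groups did not overlap for any of the 6, with 2 wholly above and 4 wholly below, as for 41.0% and 38.9% of all genes tested (79.9% in all). Without Dex-differentiated replicate 1 the log2 fold changes were -2.48 for Fos, -1.47 for Egr1, -1.47 for Srf, -1.01 for Junb, 0.97 for Jun and 1.53 for Fosl2, all still called. In bulk samples, fewer cells with a transcript and less of it per cell cannot be told apart.

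**Figure D1:**
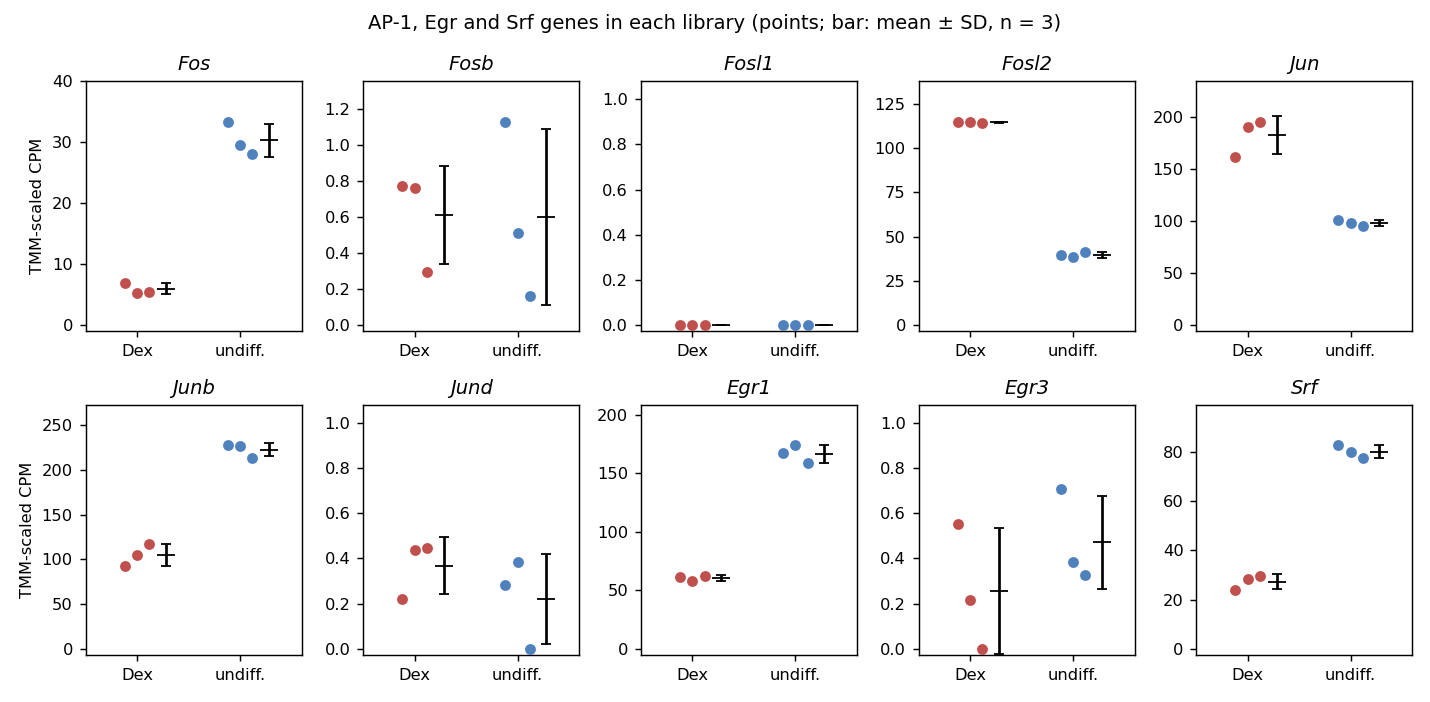
TMM-scaled CPM (linear axes that differ between panels) of the 10 members in 3 Dex-differentiated and 3 undifferentiated libraries. Points are libraries and bars are the mean ± SD (n = 3). The groups do not overlap for Fos, Fosl2, Jun, Junb, Egr1 and Srf, as for 79.9% of all genes tested. The Fosb, Jund and Egr3 panels stay below 1.2 CPM.

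Start-site sequences are shown for 5 of the 6 tested members, to set the promoters of 3 genes that fell beside those of 2 genes that rose. Each runs 5′ to 3′ on the gene's own strand in GRCm38.p6, from 250 bases before a RefSeq transcript start to 50 after it. For Srf that start lies 13 bases after the Ensembl start and 2105 bases after the outer end of the RefSeq gene span, so it is not the outermost RefSeq start, and for Fosl2 it lies 671 bases after the Ensembl start. The stretches are chr12:85473640-85473939 for Fos (plus strand), chr8:84978699-84978998 for Junb (minus strand), chr17:46556113-46556412 for Srf (minus strand), chr4:95052173-95052472 for Jun (minus strand) and chr5:32136222-32136521 for Fosl2 (plus strand). Capitals mark matches on either strand to the CArG box, to TGACG (the half-site of the cAMP response element), to TGANTCA (the AP-1 site), to TGACATCA (the variant AP-1 site known from the Jun promoter) and to GCGNGGGCG (an Egr site). No match overlaps another.
Fos: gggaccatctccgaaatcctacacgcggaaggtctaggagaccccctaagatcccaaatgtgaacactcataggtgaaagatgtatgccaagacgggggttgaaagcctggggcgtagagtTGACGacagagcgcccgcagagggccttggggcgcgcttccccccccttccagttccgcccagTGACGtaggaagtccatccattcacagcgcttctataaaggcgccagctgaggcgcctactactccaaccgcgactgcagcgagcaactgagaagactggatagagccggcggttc
Junb: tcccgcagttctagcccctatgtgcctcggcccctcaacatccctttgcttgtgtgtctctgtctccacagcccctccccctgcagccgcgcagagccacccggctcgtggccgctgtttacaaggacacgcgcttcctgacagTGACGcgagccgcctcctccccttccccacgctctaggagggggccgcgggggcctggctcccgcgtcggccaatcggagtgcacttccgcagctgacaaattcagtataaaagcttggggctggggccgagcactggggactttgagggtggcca
Srf: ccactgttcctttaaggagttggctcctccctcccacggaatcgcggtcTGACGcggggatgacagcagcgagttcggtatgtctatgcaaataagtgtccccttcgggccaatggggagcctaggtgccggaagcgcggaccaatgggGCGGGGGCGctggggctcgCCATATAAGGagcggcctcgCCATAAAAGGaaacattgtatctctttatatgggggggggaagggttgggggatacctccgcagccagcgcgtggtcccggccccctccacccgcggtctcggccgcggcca
Jun: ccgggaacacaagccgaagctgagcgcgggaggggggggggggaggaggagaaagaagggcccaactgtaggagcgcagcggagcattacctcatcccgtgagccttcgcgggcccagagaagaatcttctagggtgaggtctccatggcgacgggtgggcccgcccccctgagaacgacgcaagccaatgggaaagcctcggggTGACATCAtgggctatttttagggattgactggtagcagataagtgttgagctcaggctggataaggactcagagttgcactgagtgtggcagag
Fosl2: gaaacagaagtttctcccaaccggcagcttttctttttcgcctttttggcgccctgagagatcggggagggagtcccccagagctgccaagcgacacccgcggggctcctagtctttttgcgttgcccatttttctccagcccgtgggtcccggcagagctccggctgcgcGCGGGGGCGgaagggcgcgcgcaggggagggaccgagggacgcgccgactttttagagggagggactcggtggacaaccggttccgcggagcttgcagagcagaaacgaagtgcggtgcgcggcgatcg

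Srf held 2 CArG boxes, at -82 to -73 and -62 to -53 relative to its start, beside an Egr site at -101 to -93 and a TGACG at -201 to -197. CArG boxes were found in 1.63% of the 32851 promoters of the same length, and Srf is known to act on its own promoter. Fos held TGACG at -129 to -125 and at -66 to -62, and Junb held it at -106 to -102, a motif that 20.8% of promoters hold. The serum response element for which Fos is known lies further upstream than this window. Jun held TGACATCA at -45 to -38 (3.62% of promoters) and Fosl2 held GCGGGGGCG at -79 to -71 (the Egr pattern was in 5.55% of promoters). TGANTCA, found in 7.81% of promoters, was in none of the 5 windows, which says only that these letters are not there. A match is a description of the letters and not a binding site measured here.

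Fos encodes the founding Fos protein, a strong activator that the cell removes quickly (ENSMUSG00000021250, chromosome 12, 85473890 to 85477273). It had 6.98, 5.34 and 5.51 CPM in Dex-differentiated replicates 1 to 3, against 33.4, 29.6 and 28.1 CPM in undifferentiated replicates 1 to 3. Every Dex-differentiated library lay below every undifferentiated one, and replicate 1 was the highest of its group in both. Fos averaged 5.94 ± 0.899 CPM in Dex-differentiated and 30.3 ± 2.72 CPM in undifferentiated cells (SD, n = 3 each), a log2 fold change of -2.34 with an SE of 0.131 (adjusted p = 3.12e-15 by edgeR). Only 2.71% of tested genes had a lower log2 fold change than Fos.

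Fosl2, also known as Fra-2, lacks the strong activation domain of Fos and its mRNA is known to persist longer after stimulation (ENSMUSG00000029135, chromosome 5, 32135801 to 32157842). It had 115, 115 and 114 CPM in the Dex-differentiated libraries, against 39.7, 38.2 and 41.4 CPM in the undifferentiated ones. The Dex-differentiated libraries were nearly equal, and all lay above the undifferentiated libraries. The log2 fold change was 1.53 with an SE of 0.0648 (adjusted p = 6.08e-18 by edgeR), and 90.1% of tested genes had a lower one. Fos and Fosl2 therefore changed in opposite directions, each by more than the spread between its replicates. Per kilobase of exon, Fosl2 stood at 3.99, 5.23 and 5.04 times the level of Fos in Dex-differentiated libraries, against 0.289, 0.314 and 0.358 times in undifferentiated libraries.

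The remaining Fos genes were at the edge of detection. Fosb, whose product and its truncated form are known from stimulated neurons, had 7, 7 and 2 reads in Dex-differentiated and 8, 4 and 1 reads in undifferentiated libraries. The groups overlapped, and the ratio of scaled reads was 1.04 (exact 95% binomial interval 0.470 to 2.35, counting error only). Fosl1, or Fra-1, had 0 reads in all 6 libraries, which in a single library allows a level of up to 0.343 to 0.468 CPM (3 reads of the library's total). The Fosl1 exons share 1163 bases with Ccdc85b on the opposite strand, and the reads were counted by strand.

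Junb, a Jun protein that is a weaker activator than Jun at single AP-1 sites (ENSMUSG00000052837, chromosome 8, 84974484 to 84978718), had 93.0, 105 and 117 CPM in Dex-differentiated libraries and 228, 227 and 214 CPM in undifferentiated libraries. The groups did not overlap, and the Dex-differentiated libraries spread more widely around their mean. Junb averaged 105 ± 12.2 CPM in Dex-differentiated and 223 ± 7.67 CPM in undifferentiated cells (SD, n = 3 each), a log2 fold change of -1.09 with an SE of 0.0638 (adjusted p = 7.69e-15 by edgeR), 2.13-fold lower. A stretch of 173 exon bases of Junb is shared with Prdx2 on the opposite strand.

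Jun encodes the Jun kinase substrate that can bind DNA as a pair of itself or with Fos proteins (ENSMUSG00000052684, chromosome 4, 95049034 to 95052222). It had 162, 191 and 196 CPM in Dex-differentiated libraries and 101, 98.0 and 95.8 CPM in undifferentiated libraries. Replicate 1 was the lowest of the Dex-differentiated group and still lay above all undifferentiated libraries. The log2 fold change was 0.89 with an SE of 0.0645 (adjusted p = 8.51e-13 by edgeR), 1.85-fold higher, and 0.97 without that replicate. The antisense gene Junos, which shares 232 exon bases with Jun on the opposite strand, had at most 8 reads in a library.

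Jund, known as the most broadly expressed Jun gene (ENSMUSG00000071076, chromosome 8, 70698949 to 70700616), had 2, 4 and 3 reads in Dex-differentiated and 2, 3 and 0 reads in undifferentiated libraries. The groups overlapped, and the ratio of scaled reads was 1.52 (exact 95% binomial interval 0.458 to 5.78, counting error only). No other gene shares its exons on the same strand. Gm11175 shares 877 exon bases on the opposite strand and had 1 read over all libraries. The RefSeq model of Jund starts 1210 bases before the Ensembl model that was counted, and the Ensembl transcript has a GC content of 67.1%, the highest of the members. The part of annotation and of base composition in the low Jund count was not tested.

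The 7 AP-1 genes were also set side by side per length, as CPM divided by kilobases of annotated exon and summed to a pool. The pool was 106, 120 and 127 CPM per kilobase in Dex-differentiated libraries and 149, 146 and 139 in undifferentiated libraries. Jun made up 48.7% ± 1.04 of the pool in Dex-differentiated cells and 21.3% ± 0.272 in undifferentiated cells, and Junb 38.8% ± 1.23 and 66.8% ± 0.627 in that order (SD, n = 3 each). Fosl2 took 10.1% ± 0.942 in Dex-differentiated and 2.84% ± 0.201 in undifferentiated cells, and Fos 2.18% ± 0.533 in Dex-differentiated and 8.89% ± 0.525 in undifferentiated cells (SD, n = 3 each). The 4 Fos family genes together held 12.4% ± 1.495 of the pool in Dex-differentiated and 11.8% ± 0.517 in undifferentiated cells (SD, n = 3 each), a difference smaller than the spread among Dex-differentiated libraries. With the longest coding transcript as the length of each gene the Fos family held 15.2% and 11.8% in the same order, so their likeness depends on the length used. Jund held 0.185% ± 0.0518 in Dex-differentiated and 0.0900% ± 0.0809 in undifferentiated cells (SD, n = 3 each). These shares describe chosen genes and were not tested. The Jun to Junb ratio was 1.25, 1.31 and 1.204 in Dex-differentiated libraries and 0.322, 0.311 and 0.323 in undifferentiated libraries, with no overlap. With the longest coding transcript as the length it was 0.987, 1.03 and 0.947 in Dex-differentiated and 0.253, 0.245 and 0.254 in undifferentiated libraries. A change of length multiplies this ratio by the same factor in every library, so it cannot alter the relative gap between the groups. Jun stood above Junb in every Dex-differentiated library on the exon length but not on the transcript length.

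**Figure D2:**
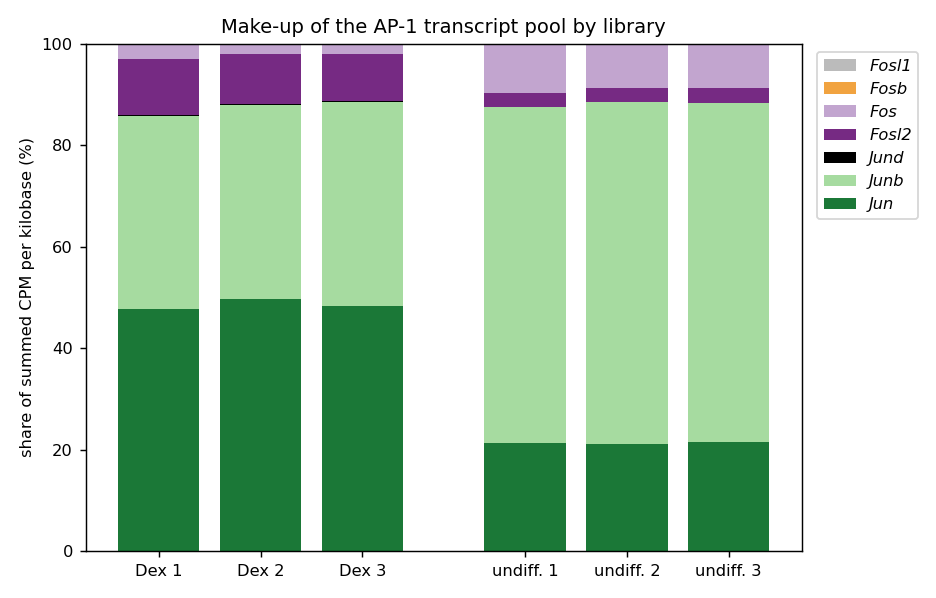
Share of each AP-1 gene in the summed CPM per kilobase of exon of the 7 AP-1 genes (bars, percent, 0 to 100), for 3 Dex-differentiated and 3 undifferentiated libraries. Jun and Fosl2 took 48.7% and 10.1% on average in Dex-differentiated libraries, against 21.3% and 2.84% in undifferentiated libraries. On this length the total of each family differed little between the groups.

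Egr1, an activator induced by growth factors and by depolarization (ENSMUSG00000038418, chromosome 18, 34859823 to 34864984), had 61.1, 58.0 and 62.5 CPM in Dex-differentiated libraries and 167, 174 and 159 CPM in undifferentiated libraries. The groups did not overlap, and each was tight. Egr1 averaged 60.6 ± 2.33 CPM in Dex-differentiated and 167 ± 7.51 CPM in undifferentiated cells (SD, n = 3 each), a log2 fold change of -1.46 with an SE of 0.0597 (adjusted p = 2.57e-18 by edgeR), 2.76-fold lower. Egr3, known from muscle spindle development, had 5, 2 and 0 reads in Dex-differentiated and 5, 3 and 2 reads in undifferentiated libraries. It was not tested (ratio of scaled reads 0.592, exact 95% binomial interval 0.191 to 1.72, counting error only). Egr2 and Egr4 had no read in any library.

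Of the Nab genes, Nab2 was called and Nab1 was not, and the difference between them was not tested. Nab2, an Egr corepressor that Egr1 is known to induce, had 27.2, 32.5 and 30.2 CPM in Dex-differentiated and 90.4, 82.3 and 82.8 CPM in undifferentiated libraries. It fell, at a log2 fold change of -1.51 with an SE of 0.0765 (adjusted p = 3.4e-16 by edgeR), close in size to that of Egr1. The ratio of Egr1 to Nab2 per kilobase was 1.47, 1.17 and 1.36 in Dex-differentiated and 1.21, 1.38 and 1.26 in undifferentiated libraries, and these overlapped. Nab1 had 85.0 ± 1.56 CPM in Dex-differentiated and 83.8 ± 5.86 CPM in undifferentiated cells (SD, n = 3 each) and missed the threshold, with an adjusted p of 0.778 by edgeR at a log2 fold change of 0.02 and an SE of 0.0632. With library totals in place of TMM factors Nab1 was called higher (log2 fold change 0.15, edgeR adjusted p = 0.0388).

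Srf, the serum response factor (ENSMUSG00000015605, chromosome 17, 46548329 to 46556175), had 23.7, 28.3 and 29.6 CPM in Dex-differentiated libraries and 82.5, 80.0 and 77.4 CPM in undifferentiated libraries. All Dex-differentiated libraries lay below all undifferentiated ones, with replicate 1 the lowest. It averaged 27.2 ± 3.12 CPM in Dex-differentiated and 80.0 ± 2.55 CPM in undifferentiated cells (SD, n = 3 each), a log2 fold change of -1.56 with an SE of 0.0795 (adjusted p = 3.46e-16 by edgeR), 2.96-fold lower. The fall of Srf mRNA lay between those of Junb and Fos and near that of Egr1, and the differences between members were not tested.

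The cofactors of Srf moved little. Of 6 listed, 5 were tested, with 4 called higher and 1 lower (40.3% and 38.6% over all genes tested). The ternary complex factors Elk1 and Elk3, which recruit MAP kinase signals to Srf, rose 1.37-fold and 1.22-fold (edgeR adjusted p = 7.04e-05 and 0.000112). Elk4, the third of them, fell to 23.4 ± 2.69 CPM in Dex-differentiated cells, against 28.6 ± 1.43 CPM in undifferentiated cells (SD, n = 3 each; log2 fold change -0.30 with an SE of 0.0985, adjusted p = 0.00749 by edgeR), and lost its call with library totals, upper quartile factors or DESeq2 and without Dex-differentiated replicate 2 (adjusted p = 0.113, 0.0681, 0.0659 and 0.0548 in that order). The actin-sensing coactivator genes Mrtfb and Mrtfa rose 1.26-fold and 1.16-fold. Mrtfa (edgeR adjusted p = 0.0301) lost its call with DESeq2 (0.123) and without undifferentiated replicate 2 (0.0933), undifferentiated replicate 3 (0.057) or Dex-differentiated replicate 3 (0.239). Myocd, the muscle coactivator, had no read.

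Actin-linked genes that Srf is known to drive were mostly lower. Of 18 listed, 12 were tested, with 2 called higher and 9 lower (40.3% and 38.6% over all genes tested), and their median log2 fold change was -0.87 against 0.02 over all genes tested. Actb, the abundant cytoplasmic actin, had 1153, 1201 and 1171 CPM in Dex-differentiated and 3981, 3673 and 3752 CPM in undifferentiated libraries, 3.23-fold lower (edgeR adjusted p = 7.47e-22). Actg1, the other cytoplasmic actin, fell 2.11-fold and Flna, the actin crosslinker filamin A, 2.10-fold. Reads of the 2 actins can be shared with near-identical copies, and no option for reads that map to several places was set, so their single values are uncertain. Actn1, which bundles actin as alpha-actinin, rose 2.09-fold and Zyx, the focal adhesion protein zyxin, 1.28-fold. Smooth muscle members such as Acta2, Cnn1 and Tagln were at 1 CPM or less in all libraries and were not tested.

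Among other bZIP genes whose products can pair with Fos or Jun, 10 of 13 were tested, with 8 called higher and 1 lower (40.3% and 38.6% over all genes tested). Their median log2 fold change was 0.62, against 0.42 with DESeq2 (11 genes tested) and 0.84 with no filter beyond 1 read (13 genes tested). Atf3, a stress-induced repressor, rose to 38.8 ± 3.93 CPM in Dex-differentiated cells, against 8.16 ± 1.64 CPM in undifferentiated cells (SD, n = 3 each; log2 fold change 2.24 with an SE of 0.125, adjusted p = 2.95e-15 by edgeR). Jdp2, which pairs with Jun and represses AP-1 sites, rose 3.29-fold, to 56.6 ± 6.23 CPM in Dex-differentiated cells, against 17.2 ± 1.76 CPM in undifferentiated cells (SD, n = 3 each). Atf4, the effector of the integrated stress response, rose 2.03-fold. Maff, a small Maf protein without an activation domain, fell 1.45-fold (edgeR adjusted p = 0.000857). Batf, Batf2 and Batf3, known from lymphoid and myeloid cells, were too low to test.

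**Figure D3:**
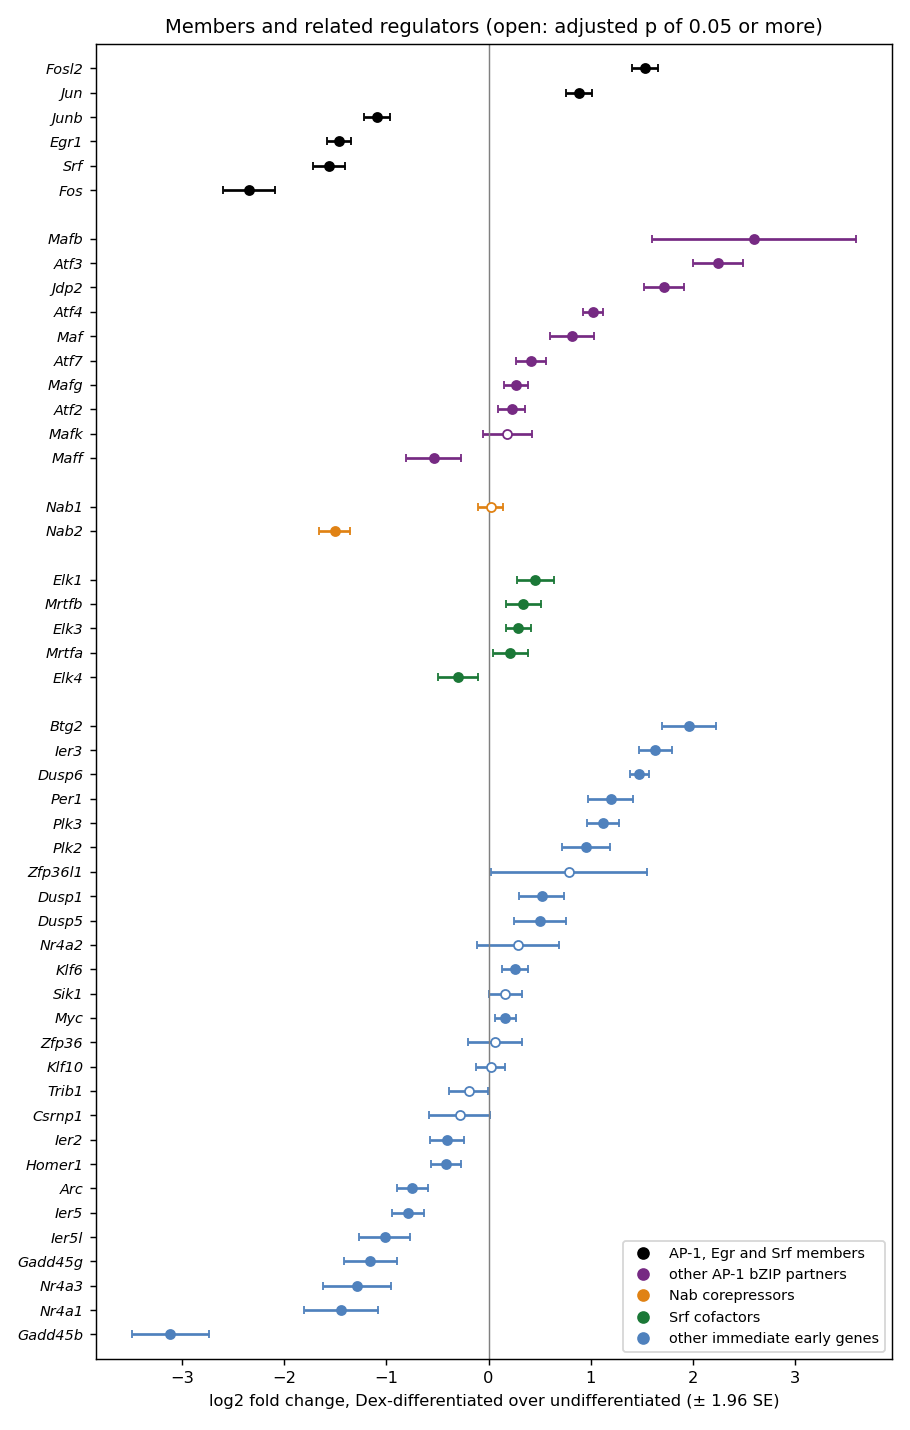
Log2 fold change (Dex-differentiated over undifferentiated, bars are approximate 95% intervals from the SE) of the 6 tested members and of the tested related genes, coloured by list; open points have an adjusted p of 0.05 or more. Fos, Srf, Egr1 and Junb lie left of 0 and Jun and Fosl2 right of it. Of the 10 other AP-1 partners tested, 8 were called higher and 1 lower (40.3% and 38.6% over all genes tested).

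Other immediate early genes did not move one way. Of 30 listed, 26 were tested, with 10 called higher and 9 lower, shares of tested genes of the same order as the 40.3% and 38.6% over all genes, and a median log2 fold change of 0.11. Gadd45b, a stress and growth arrest gene, fell 8.64-fold, to 2.39 ± 0.635 CPM in Dex-differentiated cells, against 21.1 ± 3.69 CPM in undifferentiated cells (SD, n = 3 each; edgeR adjusted p = 2.21e-14). Ier5 fell 1.73-fold and Arc, the synaptic activity gene, 1.68-fold. Dusp6, a phosphatase that removes the activating phosphates of ERK, rose 2.78-fold to 801 ± 12.6 CPM in Dex-differentiated cells, against 288 ± 5.30 CPM in undifferentiated cells (SD, n = 3 each). Ier3 rose 3.10-fold and Btg2, an antiproliferative gene, 3.88-fold.

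Genes that have been reported as AP-1 or Egr1 targets were also counted. Of 15 AP-1 targets 9 were tested, with 3 called higher and 5 lower (40.3% and 38.6% over all genes tested) and a median log2 fold change of -0.37. Vim, the intermediate filament vimentin, fell 2.61-fold, Ezr, the membrane linker ezrin, 1.76-fold and Ccnd1, cyclin D1, 1.37-fold. Tgfb1 rose 1.80-fold. The cytokine gene Il6 rose 7.29-fold, with 42, 47 and 34 reads in Dex-differentiated and only 4, 7 and 3 reads in undifferentiated libraries. The matrix protease gene Mmp9 rose to 2.58 ± 0.127 CPM in Dex-differentiated cells, against 0.280 ± 0.133 CPM in undifferentiated cells (SD, n = 3 each). Of 9 Egr1 targets 7 were tested, with 6 called higher and 1 lower, against the same shares over all genes, and a median log2 fold change of 1.06, opposite in sign to that of Egr1. Vegfa, the vascular growth factor, rose 2.71-fold. Hpse, the heparan sulphate cleaving enzyme, had 202 reads over the Dex-differentiated and 2 over the undifferentiated libraries (ratio of scaled reads 85.4, exact 95% binomial interval 23.3 to 710). F3, tissue factor, fell 1.38-fold. Th, which makes the precursor of dopamine and whose promoter holds an Egr1 site in rat, rose with a log2 fold change of 1.06 (edgeR adjusted p = 9.5e-06).

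**Figure D4:**
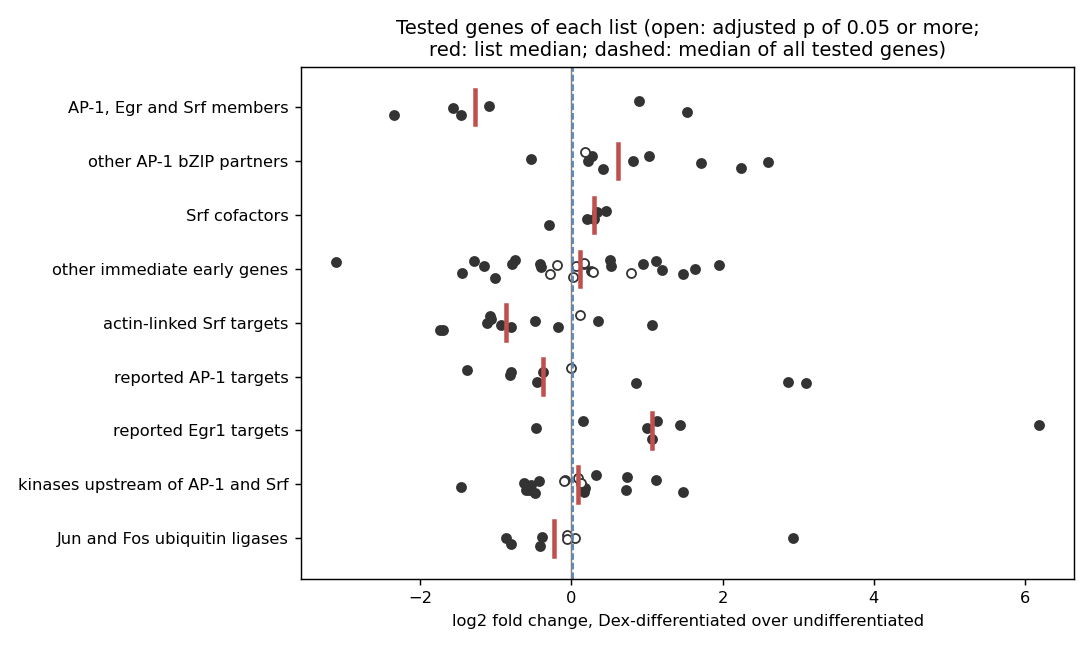
Log2 fold change (Dex-differentiated over undifferentiated) of the tested genes of each list, one point per gene with open points at an adjusted p of 0.05 or more. Red bars are list medians, which run from -0.87 for actin-linked Srf targets to 1.06 for reported Egr1 targets outside the members themselves, and the dashed line is the median of all tested genes (0.02).

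Ordered by level per kilobase of exon, Dex-differentiated cells had Jun first (57.3 ± 5.75 CPM per kilobase, SD, n = 3), then Junb, whose libraries overlapped those of Jun, then Egr1, Fosl2, Srf and Fos (2.53 ± 0.382). Undifferentiated cells had Junb first (96.9 ± 3.33 CPM per kilobase, SD, n = 3), then Egr1, Jun, Srf, Fos (12.9 ± 1.16) and Fosl2 (4.11 ± 0.163), with no overlap between neighbours. With the longest coding transcript as the length, Junb (58.1 CPM per kilobase) came before Jun (57.3) in Dex-differentiated cells, again with overlapping libraries, Fosl2 stood above Egr1 there (17.5 against 13.5), and Jun and Srf overlapped in undifferentiated cells. Jund, Fosb and Egr3 stood below 0.3 CPM per kilobase in both groups.

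The genes with the most similar profile over the 6 libraries were found by the Euclidean distance of centred log2 CPM among 10701 genes with a mean of at least 5 CPM. For Fos they were Kpna2, a nuclear import receptor, and Aif1l (distances 0.203 and 0.220), for Junb Naa38 and Hspbp1 (0.0789 and 0.0912) and for Egr1 Nop16 and Phlda1 (0.123 and 0.125). For Srf they were Tmem97 and Rbm38 (0.0986 and 0.130), for Jun Herpud1 and the peripherin gene Prph (0.104 and 0.115) and for Fosl2 Nfe2l1 and 4931406C07Rik (0.0401 and 0.0435). Over 2 groups such distances follow the size of the fold change: the log2 fold change of Kpna2 was -2.29, beside -2.34 for Fos, and that of Phlda1 was -1.48, beside -1.46 for Egr1.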

How the data were processed

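The deposited values are whole-number counts of reads per gene, one file per library, with no normalization. Per the file headers, the authors used featureCounts 1.6.4 with the exons of each gene in Ensembl 96 (GRCm38), strand setting 1, without options for reads that map to several places or overlap several genes, so reads shared by near-identical genes are uncertain. The submitters' processing notes also name HISAT2 2.2.0, Trim Galore 0.6.4, DESeq2 and FastQC 0.11.9. Per the labels' protocols, libraries were made from 500 ng of RNA with 12 cycles and read at 75 bases.

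All 55536 identifiers matched GENCODE M21. Genes were kept by filterByExpr (minimum count 10, minimum total 15); the 12664 kept held 99.8% of reads. TMM-scaled counts were tested with edgeR 4.0.16 (glmQLFit, glmQLFTest, R 4.3.3), group as the only term, with Benjamini-Hochberg adjustment over all genes tested. The SE is the log2 fold change over the square root of F. CPM are TMM-scaled. The code was tested on simulated data. Alternatives were other scalings and filters, DESeq2 1.42.0, limma 3.58.1 (voom), the replicate number as a block, an adjusted p under 0.01 and each library left out.

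The members and gene lists were chosen with earlier results of these data known. Named were all members, all Egr, Nab and Srf cofactor genes, up to 3 called genes per direction of each other list and the 2 nearest profiles. The neuroendocrine, endothelial and fibroblast marker genes, Th, Cop1, Mapk8 and the genes of other lists named as untested or not called fall outside this rule. They were chosen after their values were seen. Of the genes the rule named, some are not reported here. Intervals and limits cover counting error only. Promoter windows are from a table of RefSeq starts (GRCm38.p6) in which 7 of the 10 members were matched.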

Additional observations from a re-analysis of the deposited data

How the results depend on the processing

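The counts of 2 members higher and 4 lower were the same under every alternative run, and so were the directions and calls of the 6 tested members. Over all settings the log2 fold change ran from -2.48 to -2.22 for Fos, -1.62 to -1.44 for Srf, -1.499 to -1.34 for Egr1, -1.17 to -0.97 for Junb, 0.84 to 1.02 for Jun and 1.501 to 1.66 for Fosl2. Library totals and upper quartile factors shifted the median log2 fold change of all genes by 0.125 and 0.102, which moved all members up by about as much. Same-numbered libraries did not deviate together (correlations -0.0947, 0.0357 and -0.0710 for replicates 1, 2 and 3), so the numbers were not taken as pairs; with the replicate number as a block 2 members were higher and 4 lower, and 5017 and 4803 of all genes. Without a given library, 5022 to 5103 genes were higher and 4674 to 4845 lower. Without division by length the Fos family held 29.7% of the AP-1 pool in Dex-differentiated and 18.03% in undifferentiated cells, and Jund 0.0887% in Dex-differentiated cells; with the longest coding transcript as length, an alternative chosen after seeing the data, the Fos family held 15.2% in Dex-differentiated cells. The Nab1 log2 fold change ran from -0.0275 (without undifferentiated replicate 1) to 0.0777 (without undifferentiated replicate 2) when a library was left out. Elk4 and Mrtfa lost their calls as given above, Mrtfa also at an adjusted p under 0.01. The cause was not tested for any of these. At these depths Fosb, Fosl1, Jund and Egr3 were too low for a difference to be detectable.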

Other observations

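The kinases upstream of AP-1 and Srf moved both ways. Of 19 listed and tested, 8 were called higher and 7 lower (median log2 fold change 0.09), where 40.3% and 38.6% of all genes were. Mapk3, which encodes the kinase ERK1, rose to 121 ± 5.58 CPM in Dex-differentiated cells, against 43.2 ± 1.63 CPM in undifferentiated cells (SD, n = 3 each; log2 fold change 1.48 with an SE of 0.0657, adjusted p = 1.82e-17 by edgeR). Mapk9 and Mapk10, which encode Jun kinases, rose 1.65-fold and 1.66-fold. Mapk8, the other Jun kinase gene listed, fell (log2 fold change -0.56 with an SE of 0.0773, adjusted p = 2.43e-07 by edgeR). It averaged 39.1 ± 0.803 CPM in Dex-differentiated and 57.8 ± 5.29 CPM in undifferentiated cells (SD, n = 3 each). Hras, which encodes a small GTPase upstream of ERK, fell 2.76-fold and Rps6ka1, an ERK-activated kinase, 1.52-fold. At an adjusted p under 0.05, the alternatives gave 6 to 10 of these kinase genes higher and 7 lower. The most were higher with library totals or upper quartile factors, and the fewest with DESeq2 or without undifferentiated replicate 2.

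Of 8 genes for ubiquitin ligases that act on Jun or Fos, or for their parts, 1 was called higher and 4 lower (40.3% and 38.6% over all genes tested). Det1, an adaptor of the Cop1 ligase that marks Jun for destruction, fell 1.74-fold, Skp1a, a core subunit, 1.82-fold, the scaffold Cul1 1.34-fold and Cop1 itself 1.31-fold. Fbxl21 rose to 3.43 ± 0.515 CPM in Dex-differentiated cells, against 0.445 ± 0.426 CPM in undifferentiated cells (SD, n = 3 each). Fbxw7 and Itch, both ligases for Jun, were not called.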
